A study of Capsella rubella with 6 samples.

Results

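Among 6990 genes of *Capsella rubella* endosperm with at least 20 allelic reads in each of 4 libraries, 12 had a high maternal share of reads in one direction of a reciprocal cross and a share near the genome dosage in the other. The plant belongs to the mustard family and pollinates itself, and endosperm is the seed tissue that nourishes the embryo. The 12 genes were chosen by their own shares: at least 85% maternal reads in both libraries of one cross, and 60% to 75% in both libraries of the other. The high share lay in Cr A x Cr B for 3 genes, which is 0.0429% of the genes, and in Cr B x Cr A for 9 genes, which is 0.129%. In comparison, 197 genes stood at 85% or more in all 4 libraries.

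The accessions were Cr48.21, written Cr A, and Cr75.2, written Cr B. Endosperm was dissected 6 days after pollination from 300 to 500 seeds for each RNA replicate, after emasculated flowers had been left 2 days before pollination by hand. Each direction of the cross had 2 RNA libraries, and every hybrid endosperm carried 1 accession's genome from the mother and the other's from the father. Nothing in the labels says that the replicates came from separate plants, and the cross names were read here as female x male, which the labels do not state. On the opposite reading the accession names would be exchanged below, while the maternal shares would stay as they are.

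Endosperm arises from a second fertilisation and holds 2 maternal copies of the genome for 1 paternal copy, so a gene read equally from every copy gives a maternal share of 66.7%. In genomic imprinting an allele is expressed according to the parent it came from, and in plant endosperm this is known to rest on DNA methylation and Polycomb marks laid down before fertilisation. Such a gene keeps its parental bias in both directions of a cross. A difference between the alleles of the accessions follows the accession, and therefore raises the maternal share in one direction and lowers it in the other. Alleles that differ between accessions in their imprinting are a further known class. The sources used here pair the gene intervals with no names, so the genes are numbered 1 to 12 and given by position, no function is stated, and neither pathway genes nor markers of endosperm, seed coat or embryo could be read.

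The libraries held 8122761 and 11702341 allelic reads for Cr A x Cr B, then 9524883 and 11637156 for Cr B x Cr A. The median maternal share over the 6990 genes was 69.3% and 67.8% in Cr A x Cr B against 69.6% and 72.2% in Cr B x Cr A, replicates 1 and 2 in this order here and below. The second replicate of Cr B x Cr A thus had the highest median. A shift between the crosses was common: the maternal share was higher in both Cr B x Cr A libraries than in both Cr A x Cr B ones for 37.4% of all genes, and the reverse held for 23.1%. The 12 genes were spread over 7 scaffolds, with 3 on scaffold 2, 3 on scaffold 5 and 2 on scaffold 3.

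The 3 genes with the high share in Cr A x Cr B had Cr A as the maternal allele in the high cross. Gene 1 lay on scaffold 2 from 3721850 to 3723323 on the minus strand. Its maternal share was 92.1% and 92.8% in Cr A x Cr B against 74.4% and 72.8% in Cr B x Cr A, from 404, 290, 199 and 202 reads. The replicates were close to each other, with means of 92.4% ± 0.48 (SD, n = 2) and 73.6% ± 1.13 (SD, n = 2).

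Gene 2 was a long interval on scaffold 3, from 8843283 to 8849174 on the plus strand, with 17 polymorphic sites. Its share was 86.4% and 92.4% in Cr A x Cr B, against 71.8% and 62.6% in Cr B x Cr A. Here the replicates of each cross differed more, with an SD of 4.19 and 6.53 points. Gene 3, on scaffold 5 from 11079252 to 11081191 on the plus strand, rested on 67, 39, 28 and 21 reads. Its shares were 88.1% and 89.7% in Cr A x Cr B against 75% and 71.4% in Cr B x Cr A, with exact binomial (Clopper-Pearson) intervals at 95% that overlapped between the crosses. Gene 3 also lay at the edge of the rule, since its 75% was the upper limit allowed.

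The 9 genes with the high share in Cr B x Cr A had Cr B as the maternal allele there. Gene 12, on scaffold 7 from 4731422 to 4732126 on the plus strand, was read far more often than the other 11, with 28736, 61141, 12308 and 41350 reads. Its share was 68.4% and 67.1% in Cr A x Cr B against 87.5% and 96.2% in Cr B x Cr A. Spread was larger in the high cross, with 91.8% ± 6.11 (SD, n = 2) against 67.7% ± 0.867 (SD, n = 2) in the other. Its reads all came from 1 site in a listed exon, at 4731813.

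Gene 6, on scaffold 2 from 7642684 to 7647208 on the plus strand, reached 93.4% and 95.3% in Cr B x Cr A, against 71.1% and 62.9% in Cr A x Cr B. Over the 9 genes the mean difference between the crosses ran from 19.0 to 27.3 points, and gene 6 was at the upper end. Gene 8, on scaffold 4 from 7223333 to 7224485 on the minus strand, stood at 95.8% and 89.8% in the high cross and at 74.5% and 69.5% in the other. Gene 8's lower cross therefore came close to the 75% limit in its first replicate.

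Gene 5 on scaffold 2, from 2254549 to 2261531 on the minus strand, had 23 sites and between 1698 and 2963 reads in each library. Its share was 69.3% and 64.4% in Cr A x Cr B against 85.1% and 86.6% in Cr B x Cr A, just inside the bound. Gene 7 on scaffold 3, from 3510983 to 3511468 on the plus strand, gave 67.0% and 71.9% against 90.9% and 88.5%. Gene 10 on scaffold 5, from 1070448 to 1072262 on the plus strand, gave 71.8% and 71.0% against 93.0% and 88.6%. In each of these genes the replicates of a cross lay nearer to each other than the crosses did, a pattern that the rule itself selects.

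The remaining members were gene 11 with 110 to 331 reads per library, gene 4 with 26 to 181 and gene 9 with 26 to 80. Gene 11, on scaffold 6 from 1577825 to 1580342 on the plus strand, stood at 65.5% and 64.5% in Cr A x Cr B, and at 86.4% and 85.2% in Cr B x Cr A. Gene 4, on scaffold 1 from 258130 to 260195 on the minus strand, stood at 67.8% and 61.5%, and at 89.5% and 90.7%. Gene 9, on scaffold 5 from 989014 to 990948 on the plus strand, stood at 66.7% and 62.2%, and at 92.3% and 91.3%. For genes 4 and 9, as for gene 3, the binomial intervals of the crosses overlapped. In the other 9 genes they did not; over all 6990 genes the intervals were apart with Cr A x Cr B higher in 9.69% and with Cr B x Cr A higher in 17%. The rule asks for this separation, so the 9 show only where the reads were many enough, and the intervals cover counting error only.

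**Figure D1:**
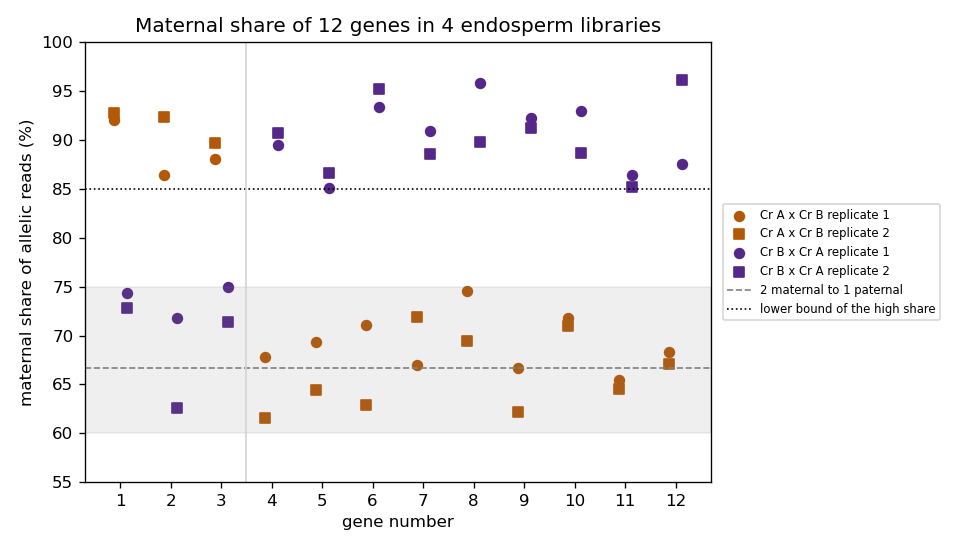
Maternal share of allelic reads, in percent, of genes 1 to 12 in each of the 4 libraries; colours mark the cross and shapes the replicate, the dashed line is 2 maternal to 1 paternal copy, the dotted line the 85% bound and the grey band 60% to 75%. Genes 1 to 3 stand above 85% in both Cr A x Cr B libraries and genes 4 to 12 in both Cr B x Cr A libraries, as the rule requires.

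The authors' deposited table gave a p-value per gene for each cross and library. Per the authors' deposited table, 3 of the 3 genes with the high share in Cr A x Cr B had p under 0.05 in both libraries of that cross, and 0 of 3 in both Cr B x Cr A libraries. Of the 9 genes with the high share in Cr B x Cr A, the authors' deposited table gave p under 0.05 in both libraries of that cross for 9, and in both libraries of the other cross for 1. Of all 6990 genes, the authors' deposited table gave p under 0.05 in both Cr A x Cr B libraries for 37.3% and in both Cr B x Cr A ones for 42.4%. These p-values come from the reads that chose the genes and are given as a description.

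Genes lay on both sides of the 85% bound, with genes 2 and 3 nearest inside it for Cr A x Cr B and genes 5 and 11 for Cr B x Cr A. For Cr A x Cr B, the non-member nearest below the bound lay on scaffold 3 from 2110149 to 2114524, with 89.4% and 84.4% in the high cross and 73.8% and 66.7% in the other. The next lay on scaffold 1 from 19305172 to 19309681, with 83.9% and 85.4%, then 68.3% and 66.0%. For Cr B x Cr A it lay on scaffold 6 from 2481856 to 2484282, with 86.3% and 84.2% in the high cross and 62.9% and 67.1% in the other. The next lay on scaffold 1 from 6986055 to 6989615, with 83.8% and 87.0%, then 61.7% and 66.0%. With the other cross inside its band, 23 genes in all had their lower high-cross share from 80% to 85% for Cr A x Cr B, and 27 genes for Cr B x Cr A.

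A maternal share can differ because the maternal allele, the paternal allele or both are read at another level. The level of each allele was expressed as RPM, its reads per 1000000 allelic reads of the library. The paternal level was lower in both libraries of the high cross than in both of the other cross for 8 of the 12 genes, and overlapped for genes 3, 4, 6 and 11. The maternal level was higher in both libraries of the high cross for 9 genes, and overlapped for genes 4, 6 and 12. Over all 6990 genes the paternal level was lower in both Cr A x Cr B libraries for 13.2% and in both Cr B x Cr A libraries for 21.8%. The maternal level was lower in both Cr B x Cr A libraries for 14.6% and in both Cr A x Cr B ones for 20.5%. The rule fixes these directions in part, and nothing is read from the counts. Paternal reads were present in every library for 12 of the 12 genes.

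Gene 12 had the widest gap in paternal level. Its paternal allele, Cr B in Cr A x Cr B, was read at 1120 and 1718 RPM, whereas the paternal Cr A allele in Cr B x Cr A was read at 161 and 136.5 RPM. The maternal alleles overlapped, at 2418 and 3507 RPM for Cr A and 1131 and 3417 RPM for Cr B. Per gene copy, the Cr A allele was thus read 9.95 times as much from the mother as from the father. The Cr B allele was read 0.80 times as much from the mother as from the father, from maternal levels that differed widely between the replicates. Such ratios compare libraries of different crosses and so carry any difference in total level between the crosses. In total, gene 12 was read at 3538 and 5225 RPM in Cr A x Cr B against 1292 and 3553 RPM in Cr B x Cr A.

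The other 11 genes had both alleles read more per copy from the mother than from the father. Over all genes with paternal reads, the Cr A allele taken alone was read more from the mother in 65.1%, and the Cr B allele taken alone in 67.0%. The share of all genes with both was not counted, so nothing is read from the 11. In gene 1 the ratio was 3.41 for the Cr A allele and 2.46 for the Cr B allele. In gene 8 it was 3.68 for Cr A and 2.59 for Cr B, and in gene 6 it was 3.12 and 2.72. Genes 2, 4, 7 and 11 stood the other way round. The ratios for Cr A and Cr B were 1.52 and 2.82 in gene 2, and 1.83 and 2.40 in gene 4. They were 1.86 and 2.56 in gene 7, and 1.21 and 2.34 in gene 11. Gene 5 had low ratios for both, 1.96 and 1.56. Over the 12 genes the median ratio was 2.85 for Cr A and 2.37 for Cr B, beside 1.14 for Cr A and 1.14 for Cr B over all genes with paternal reads. The product of the 2 ratios of a gene is bounded by the rule, whereas their split between the alleles is not. Nothing is therefore read from the medians of the 12 standing above those of all genes.

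**Figure D2:**
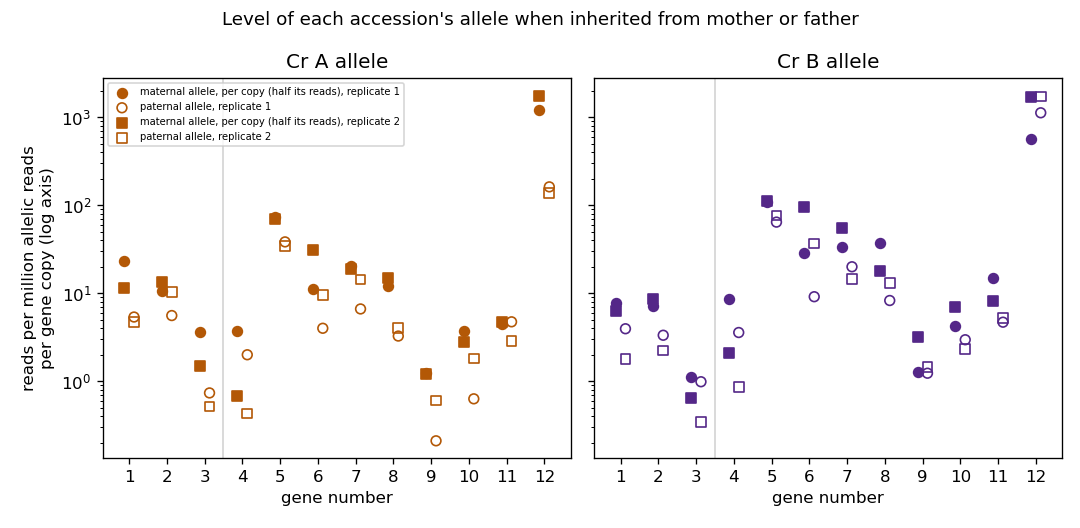
Level of the Cr A allele (left) and the Cr B allele (right) in RPM per gene copy, on a log axis, for the 12 genes; filled points are the maternal allele with its reads halved, open points the paternal allele, and shapes mark the replicate. In gene 12 the paternal Cr A allele, at 161 and 136.5 RPM, lies far below the maternal one, while the replicates of its Cr B allele overlap between the parents.

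The same counts were fitted across all 6990 genes with edgeR, with terms for the library, the accession of the allele and its parent, and 2 to 1 as the null for the parental term. In this fit the accession term is log2 of the Cr A allele minus log2 of the Cr B allele, per copy, and the parental term is the log2 difference of the maternal from the paternal allele per copy. In genes 1 to 3 the accession term favoured Cr A, at 1.06, 1.05 and 0.76. In genes 4 to 12 the Cr B allele was higher, with terms from -1.55 in gene 6 to -0.80 in gene 5. Gene 12 stood at -1.33 (SE 0.29), and at -0.87 without replicate 2 of Cr B x Cr A. The parental term was positive in all 12, from 0.74 in gene 11 to 1.58 in gene 8. The bounds of the rule fix the signs of both terms in the 12 genes, so nothing is read from those signs. The medians over all genes were -0.08 for the accession term and 0.18 for the parental term. Of the 12 genes, 11 passed an adjusted p of 0.05 for the accession term, where 17.4% of all genes did, 6.05% with Cr A higher and 11.4% with Cr B higher. The rule used this contrast, so nothing is read from that count.

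Total allelic reads, the sum of both alleles, were compared between the crosses by edgeR's quasi-likelihood test with Benjamini-Hochberg adjustment over 9040 genes. None of them passed an adjusted p of 0.05, which is 0% called, and 123 had an unadjusted p under 0.05. In Cr B x Cr A, DESeq2 called 8 genes as higher and 16 as lower, with 0 of the 12 among them. Of the 12 genes, 0 had an unadjusted p under 0.05. The estimate leaned towards the cross of the high share in 11 of 12, the exception being gene 12 at -0.90 on the log2 scale, Cr B x Cr A minus Cr A x Cr B. Such a lean was not counted over all genes, so nothing is read from that count. Standard errors were between 0.36 and 1.11.

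Polymorphic sites within a gene gave a second view of the same reads. The 12 genes held 80 sites, of which 36 had at least 20 reads in every library. Both libraries of the high cross stood above both of the other cross at 5 of 8 sites in genes 1 to 3 and at 21 of 28 in genes 4 to 12. Over all 21222 such sites in genes, Cr A x Cr B was the higher in this way at 24.8% and Cr B x Cr A at 38%. These are the reads that chose the genes, so nothing is read from the members' counts. The full rule was met by 3 sites alone, 1 each in genes 6, 10 and 12. A read that covers more than 1 site was counted at each, and sites of a gene can therefore share reads.

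Within some genes the sites differed widely. In gene 8 the site at 7223541 had shares of 77.5% and 71.6% in Cr A x Cr B against 98.5% and 96.7% in Cr B x Cr A, from 151, 363, 659 and 394 reads. At 7224475, in the same gene, the shares were 72.6% and 73.0% against 78.6% and 50%, and at 7224339 they were 66.7% and 51.4% against 81.5% and 48.0%. The high share of gene 8 thus lay at the site with most reads. In gene 7 the site at 3511447 gave 51.4% and 61.7% against 90.4% and 91.1%, while the other site at 3511418 gave 76.3% and 84.5% against 92.8% and 84.2%.

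In gene 5 the site at 2256891 ran from 35.4% and 36.5% in Cr A x Cr B to 86.7% and 94.8% in Cr B x Cr A, well beyond the share of the whole gene. In gene 6 the site at 7646525 ran from 42.6% and 37.0% to 90.2% and 98.6%. Both sites were below the 60% limit in the lower cross, with more paternal than maternal reads there. In gene 1 the site at 3722401 gave 92.6% and 96.1% in Cr A x Cr B against 70.0% and 50%, while the site at 3722063 gave 87.0% and 91.2% against 87.2% and 88.9%.

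With the deepest site of each gene left out, a comparison chosen after seeing the data, 8 of the 12 genes kept 20 reads in each library. Both libraries of the high cross were above both of the other in 2 of 2 genes high in Cr A x Cr B, as well as 4 of 6 high in Cr B x Cr A. Over the 4073 genes treated alike, 24.6% and 40.8% were higher in these directions. The rule summed all sites, so the reads at the remaining sites also chose the genes, and nothing is read from the members' counts. Gene 6 alone met the full rule. Gene 7 then stood at 76.3% and 84.5% against 92.8% and 84.2%. Gene 8 stood at 70.5% and 63.7% against 74.1% and 49.3%. Gene 12, with its 1 site, had none left.

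**Figure D3:**
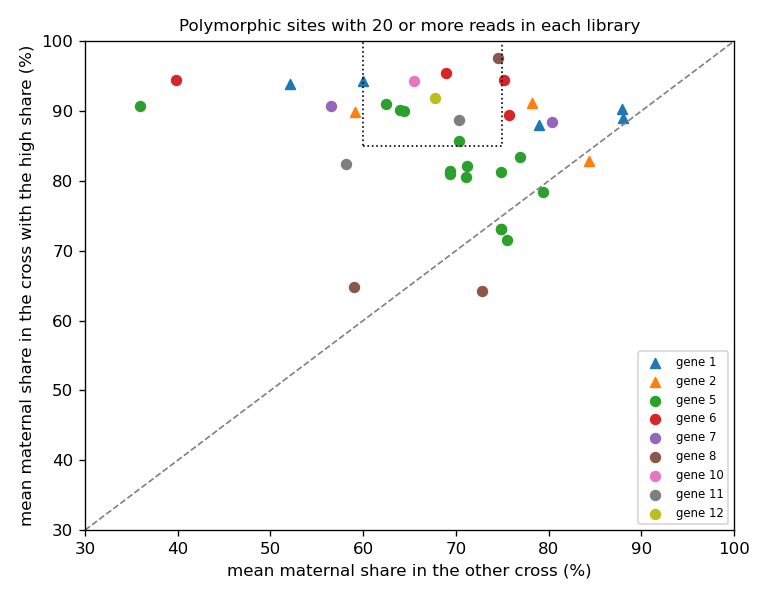
Each point is 1 of the 36 sites that had 20 or more reads per library; the axes are its mean maternal share, in percent, in the cross with the high share and in the other cross, triangles are sites of genes 1 to 3, the dotted box marks the bounds of the rule and the dashed line equal shares. Sites of 1 gene scatter inside and outside the box; most lie above the dashed line, a direction that the choice of the genes fixes in part.

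The replicates allowed the rule to be applied to a pair of libraries and read in the others. Replicate 1 of both crosses chose 121 genes for Cr A x Cr B and 120 for Cr B x Cr A. In replicate 2, 3 of the 121 (2.48%) and 9 of the 120 (7.5%) met the same bounds, beside 0.629% and 1.56% of all genes. The high cross stood above the other for 76 of the 121 (62.8%) and 102 of the 120 (85%), beside 34.9% and 64.3% of all genes. The median share of the 121 genes in replicate 2 was 75.6% in the high cross and 71.0% in the other, and of the 120 genes 78.7% and 64.4%.

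Chosen by replicate 2, 3 of 44 genes (6.82%) and 9 of 109 genes (8.26%) met the bounds in replicate 1, beside 1.73% and 1.72% of all genes. The high cross stood above the other in replicate 1 for 36 of the 44 (81.8%), beside 49.2% of all genes, and for 81 of the 109 (74.3%), beside 50.3%. The genes that met the bounds in both replicates are the 12 by construction, and they also count among those whose high cross stood above the other. Most genes chosen by 1 replicate therefore did not meet the rule in the other. The differences from the shares of all genes were not tested, and nothing is read from them. For a single gene, 2 libraries per cross cannot give a two-sided exact permutation p under 0.333.

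**Figure D4:**
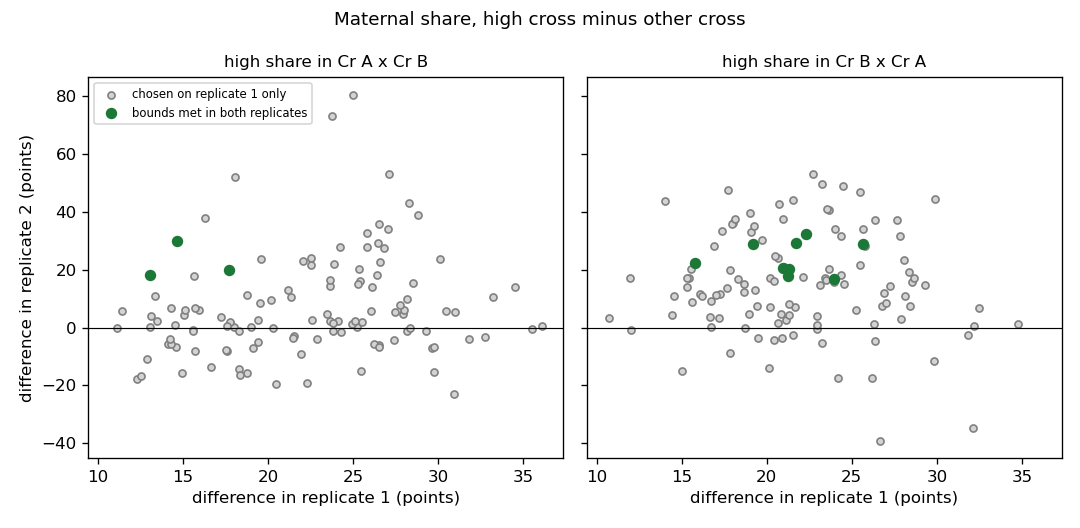
Maternal share of the high cross minus the other cross, in percentage points, in replicate 1 (horizontal) and replicate 2 (vertical) for the genes chosen on replicate 1, 121 on the left and 120 on the right. Green points are the 3 and 9 genes that met the bounds in both replicates; the grey points spread on both sides of zero in replicate 2.

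The genes next to the 12 were not used by the rule, and their accession terms can be tested. The nearest tested gene on each side gave 24 neighbours at distances from 162 to 43361 bp. Of these, 6 passed an adjusted p of 0.05 in edgeR's quasi-likelihood test with Benjamini-Hochberg adjustment, which is 25%, beside 17.4% of all genes, and the difference between those shares was not tested. Of the 6, 4 favoured the same accession as their neighbour among the 12 and 2 the opposite one. The neighbours of genes 1 to 3 numbered 6, and 0 of them passed.

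Gene 5 had on its right a gene on scaffold 2 from 2265390 to 2273468, 3859 bp away, with shares of 31.7% and 22.0% in Cr A x Cr B against 94.5% and 92.8% in Cr B x Cr A. Its accession term was -2.68 (SE 0.19), with an adjusted p of 0.001065 by edgeR's quasi-likelihood test. Gene 9 had on its right a gene on scaffold 5 from 994911 to 995480, 3963 bp away, with 15.8% and 12.3% against 91.7% and 91.0%. Its term was -3.00 (SE 0.15), with an adjusted p of 0.000411 by the same edgeR test. In both neighbours the Cr B allele was the main one whichever parent carried it, and the accession terms of the adjacent genes 5 and 9 were -0.80 and -1.29. The part that either neighbour has in the values of genes 5 and 9 was not tested.

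Gene 7 was followed, 1092 bp away, by a gene on scaffold 3 from 3512560 to 3513933 with shares of 20.0% and 44.4% against 89.7% and 98.2%. The accession term was -2.73 (SE 0.52), with an adjusted edgeR p of 0.0194, and this call was lost without replicate 1 of Cr A x Cr B or without replicate 2 of Cr B x Cr A, with an adjusted p up to 0.103. Gene 6 was followed, 162 bp away, by a gene from 7647370 to 7649131 with a term of -0.65 (SE 0.16) and an adjusted edgeR p of 0.0399, a call kept in 4 of 9 settings.

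Gene 8 had neighbours that passed on both sides and both with Cr A higher, against the direction of gene 8 itself. On its left, on scaffold 4 from 7217638 to 7219363, the term was 0.75 (SE 0.19) with an adjusted edgeR p of 0.0456, a call kept in 4 of 9 settings. On its right, from 7234732 to 7235598, the term was 1.15 (SE 0.18) with an adjusted edgeR p of 0.00956, kept in 9 of 9. Leaving out replicate 1 of Cr A x Cr B or replicate 2 of Cr B x Cr A left 3 of the 6 neighbours past the threshold.

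**Figure D5:**
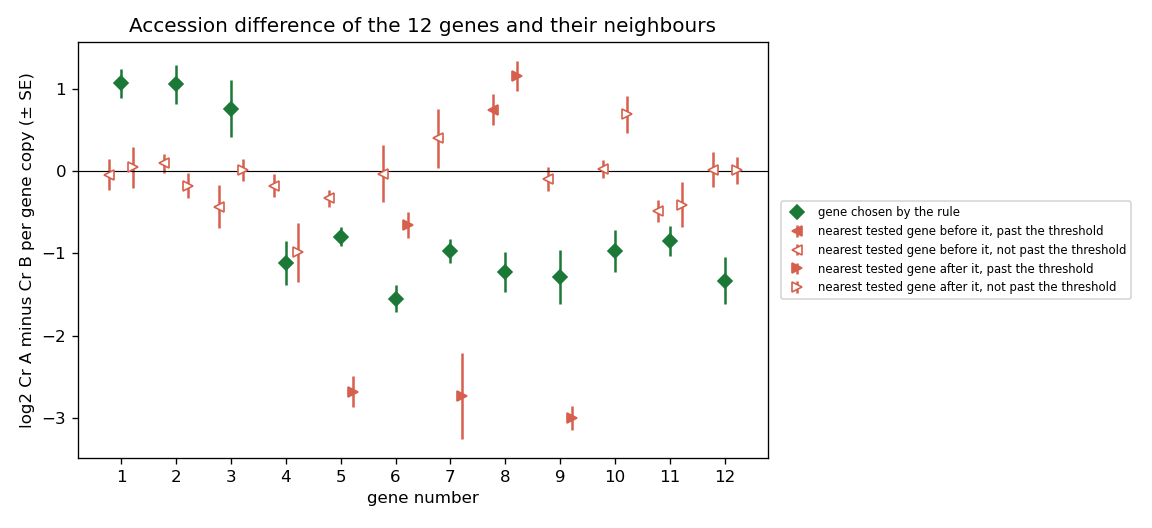
Accession term, the log2 difference of Cr A from Cr B per gene copy with its standard error, of the 12 genes and of the nearest tested gene on each side. Filled triangles mark the 6 neighbours past the threshold, with the terms of the right neighbours of genes 5, 7 and 9 below -2.5.

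Sites outside the gene intervals were also not used by the rule. Within 2 kb of the 12 genes, 4 such sites had 20 reads in every library. At position 4731306 on scaffold 7, 116 bp before the start of gene 12, Cr A x Cr B had 14 maternal against 34 paternal reads and 17 against 36, whereas Cr B x Cr A had 62 against 0 and 83 against 0. The shares were 29.2% and 32.1% in Cr A x Cr B against 100% in both Cr B x Cr A libraries, where a count of 0 allows a paternal share of up to 4.84% and 3.61%. The Cr B allele was thus the main one in all 4 libraries at this site, and 100% was above the 87.5% and 96.2% of gene 12.

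Beside gene 10, 24 bp after its end, the site at 1072286 had shares of 65.0% and 69.8% in Cr A x Cr B against 95.2% and 84.9% in Cr B x Cr A, near those of gene 10. Beyond gene 8 the site at 7226238, 1753 bp away, gave 14.8% and 33.3% against 90.2% and 82.9%, and the site at 7226124, 1639 bp away, gave 59.5% and 65.2% against 72.7% and 82.1%. Both Cr B x Cr A libraries were above both Cr A x Cr B ones at these 4 sites, as at 34.3% of all 1442 outside sites with 20 reads in each library, where 30.5% had the reverse order. Of the 4 sites, 2 lie beside gene 8, and the difference from the share over all sites was not tested.

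The intervals of the 12 genes had a median length of 1938 bp, against 2710 bp over all genes and 1965 bp over the 197 genes at 85% or more in every library. They held a median of 5 sites, against 3 and 3. The median of their reads in the lowest library was 193.5, against 221 over all genes and 117 over the 197. Lengths ran from 486 bp in gene 7 to 6983 bp in gene 5. No gene of the 12 overlapped another listed interval.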

How the data were processed

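Maternal and paternal reads were counted by the authors at polymorphic sites. Per the file headers, the deposited tables give for each site a maternal and a paternal read count in each library, a gene and an exon interval, and a p-value per gene; the null of that p-value was not given in the sources used here. Trimmomatic, TopHat and Bowtie 1.0 appear in the submitters' processing notes without their roles, and the genome build was not given. Each table column was matched to its library by the counts at its sites: at least 99.99% of sites matched the corresponding library, and at most 5.595% any other. Leaf DNA was not analysed here.

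Counts were summed per gene and library, for 12641 genes with a site. A read covering more than 1 site was counted at each. The fit with edgeR 4.0.16 (R 4.3.3) used a maternal and a paternal column per library, 2 residual degrees of freedom, an offset for 2 maternal copies, at least 20 reads in each library and Benjamini-Hochberg adjustment over 6990 genes. Total reads were compared with TMM and filterByExpr over 9040 genes. DESeq2 1.42.0 was an alternative to both fits. Standard errors of the edgeR estimates were worked back from the test, as the absolute log2 value over the square root of its F statistic. Both fits were tested on simulated data. Binomial intervals are exact (95%), and the limit for a count of 0 is 3 reads of the total; both cover counting error only. With replicates not said to be separate plants, p-values cover only the variation among these pooled libraries. All 12 genes are named, with the nearest non-members outside the 85% bound and the neighbours past the threshold. The members, lists and tests were chosen with earlier results of these data known.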

Additional observations from a re-analysis of the deposited data

Results flagged for a closer look

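Of the 24 genes next to the 12, 6 had a maternal share that differed between the directions of the cross by the accession term of edgeR's quasi-likelihood test. That is 25%, beside 17.4% of all genes, and the difference between those shares was not tested. The terms, as log2 differences of Cr A from Cr B per copy, were -2.68 beside gene 5, -0.65 beside gene 6, -2.73 beside gene 7, 0.75 before and 1.15 after gene 8, and -3.00 beside gene 9. The calls beside genes 5 and 9 and after gene 8 were kept in 9 of 9 settings. The call beside gene 7 was kept in 7 of 9, and those beside gene 6 and before gene 8 in 4 of 9. The terms before and after gene 8 had the opposite sign to gene 8.

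The site 116 bp before gene 12, outside every gene interval and so not part of the gene's counts, had a maternal share of 100% in both Cr B x Cr A libraries, from 62 and 83 reads, against 29.2% and 32.1% in Cr A x Cr B. Whether these reads belong to the transcript of gene 12 was not tested.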

How the results depend on the processing

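The number of genes that meet the rule depended on its bounds. In place of 3 genes high in Cr A x Cr B, then 9 high in Cr B x Cr A, a minimum of 10 reads gave 6 and 14, a bound of 80% gave 26 and 36, a bound of 90% gave 1 and 2, and a band of 55% to 80% gave 14 and 24. Leaving out 1 replicate, which leaves the rule fewer libraries to meet, gave 15 to 60 and 35 to 65. Taking each site alone, 0 and 3 of the genes held a site that met the rule, and without the deepest site 0 and 1 met it, both added after seeing the data. Other settings gave similar counts. A minimum of 50 reads gave 2 and 7 genes, and exon sites only gave 2 and 8, all of them among the 12. In 2 settings the genes changed. The deepest site only gave 3 and 8 genes, of which 0 and 3 were among the 12. Odds rescaled to the median gene gave 4 and 8, of which 2 and 7 were.

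Over all genes, leaving out 1 replicate changed the accession calls from 423 to between 181 and 369 with Cr A higher, and from 794 to between 267 and 670 with Cr B higher; among neighbours 3 to 5 were called in place of 6. Accession and parental terms of the 12 genes reversed in 0 settings. The bounds of the rule fix both signs wherever all sites are used, so nothing is read from this. Gene 8 moved to an accession term of -0.89 and -1.58 without replicate 1 or 2 of Cr B x Cr A, and gene 12 to -1.79 and -0.87. Total reads gave 0 calls in each direction, but (for Cr B x Cr A, higher then lower) DESeq2 gave 8 and 16, no filter 3 and 2, and the replicate block 2 and 3. The labels do not say that the numbers pair the libraries. Deviations from the cross mean correlated at 0.52 over 6990 genes between libraries of the same number. Of genes chosen by replicate 2, 7.84% met the bounds in replicate 1, and these are the 12 genes themselves. With odds rescaled to the median gene it was 12%. The causes were not tested. With 2 libraries per cross, and under 50 reads in at least 1 library for genes 3, 4 and 9, differences of a few points are not resolved.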
